A study of Homo sapiens with 18 samples.

Results

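Interferon-stimulated genes, the antiviral and regulatory genes that a cell switches on after an interferon has bound its receptor, were followed across 2 triple-negative breast cancer cell lines together with IFNE, which encodes interferon epsilon. The genes were chosen by name, as 51 symbols, of which 34 had a transcript cluster (the array's probe set for 1 gene) under that symbol in the platform annotation, among 53617 transcript clusters in all. IFNE was found only through a supplementary table of the study and is described apart. The other 16 symbols, IFNB1, IFNL1, ADAR, OAS1, OAS2, OAS3, CMPK2, MX1, GBP1, GBP2, PARP9, PARP14, IFI6, IFI16, IFI27 and LGALS3BP, were not analysed here. Each of the 34 genes had 1 transcript cluster, and no filter on low signals was applied, so all 34 entered every test.

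The established human lines HCC1806 and HCC1395 were each treated for 48 h with GapmeR 1, GapmeR 2 or a negative control GapmeR, and 3 arrays were hybridised for each of the 6 groups, 18 in all. GapmeRs are antisense oligonucleotides that direct cleavage of a transcript, here the long non-coding RNA PART1. Every group, the controls included, received an oligonucleotide, and no untreated cells were measured, so a response common to all 3 GapmeRs cannot be seen in these arrays. "Baseline" below therefore means the negative control GapmeR arrays. A reaction to the control GapmeR that differs between the lines cannot be told apart from a difference between untreated lines. Signals are log2 RMA values, in which a difference of 1 is 2-fold, and they can be compared between arrays for 1 gene but not between genes.

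Interferons of type I signal through the kinases JAK1 and TYK2 to a transcription factor complex that contains IRF9, which binds the interferon-stimulated response element in gene promoters. RNA or DNA in the wrong place, including some synthetic oligonucleotides, can start the same programme through sensors such as IFIH1 (MDA5), RIGI (RIG-I), the Toll-like receptors and CGAS. Many tumour cell lines carry a low level of this programme without added interferon, and interferon epsilon is unusual among type I interferons in being made constitutively by epithelia of the reproductive tract.

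The arrays themselves had medians between 4.04 and 4.13. PART1, the targeted transcript, read 4.70 to 5.36 on the 6 HCC1395 GapmeR arrays, against 5.45 to 5.76 on the 3 HCC1395 control arrays. In HCC1806 it read 3.68 to 4.47 on the 6 arrays labelled GapmeR, against 3.69 to 3.94 on the control arrays, so it was not lower on arrays labelled GapmeR. The HCC1806 control mean, 3.84, was itself below the array medians, a dim signal, and whether a fall could show there was not tested. PART1 therefore does not check the labels in HCC1806, and those groups are named below by their labels. The epithelial gene EPCAM averaged 11.18 in HCC1806 controls and 4.75 in HCC1395 controls. The mesenchymal gene VIM averaged 5.12 in HCC1806 controls and 9.31 in HCC1395 controls. Of 4 measured epithelial markers 3 were higher in HCC1806 at a limma adjusted p under 0.05, and all 3 measured mesenchymal markers were lower. Among all transcript clusters with a symbol 21% were higher and 21.8% lower. The epithelial marker KRT8 did not differ, at 5.59 in HCC1806 controls and 5.60 in HCC1395 controls. Of 6 leukocyte markers 2 were measured, CD14 and LYZ, and they averaged 3.96 and 2.34 in HCC1806 controls and 3.98 and 2.34 in HCC1395 controls. One array stood apart in the interferon-stimulated genes: on HCC1395 GapmeR 2 replicate 3, 30 of 34 lay above both other replicates of the group, against 1 to 17 on each of the other 17 arrays, and the values it moved by over 1.5 times are given with and without it for the genes named in the GapmeR 2 comparison. Nothing in the sources says that the arrays came from separate cultures, so p-values measure the spread between these arrays only.

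Promoter stretches of some of these genes are shown first because the interferon-stimulated response element is known from such promoters. The core letters of the response element, GAAANNGAAA on either strand, were searched in the 250 bases upstream of each RefSeq start (GRCh38.p14). Of the 34 genes, 26 had a promoter in the table and 17 of those 26 (65.4%) held the letters, against 3.71% of all 27305 genes with a promoter in the table. Below, 50 bases from each of 12 promoters are printed 5′ to 3′ in the direction of the gene, with every match in capitals, for genes that were higher in HCC1806 (ISG15, IFIT1, IFIT3, IFIT5, EPSTI1) and lower in HCC1806 (IFI44L, HERC5, IFITM1, DDX60, ISG20, IFI44, IFITM3).
ISG15, chr1:1013367-1013416, plus strand: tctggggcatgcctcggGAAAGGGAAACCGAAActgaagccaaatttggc
IFIT1, chr10:89392493-89392542, plus strand: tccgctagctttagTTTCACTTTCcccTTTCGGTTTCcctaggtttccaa
IFIT3, chr10:89327838-89327887, plus strand: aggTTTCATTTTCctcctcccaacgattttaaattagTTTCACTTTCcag
IFIT5, chr10:89414516-89414565, plus strand: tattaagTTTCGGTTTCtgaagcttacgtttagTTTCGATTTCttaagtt
EPSTI1, chr13:42992262-42992311, minus strand: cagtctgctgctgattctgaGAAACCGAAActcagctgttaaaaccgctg
IFI44L, chr1:78620264-78620313, plus strand: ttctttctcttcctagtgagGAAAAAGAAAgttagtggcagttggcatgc
HERC5, chr4:88456974-88457023, plus strand: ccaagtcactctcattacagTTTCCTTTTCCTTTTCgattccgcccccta
IFITM1, chr11:313980-314029, plus strand: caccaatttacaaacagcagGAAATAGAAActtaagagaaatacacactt
DDX60, chr4:168318811-168318860, minus strand: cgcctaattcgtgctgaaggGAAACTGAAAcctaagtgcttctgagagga
ISG20, chr15:88638927-88638976, plus strand: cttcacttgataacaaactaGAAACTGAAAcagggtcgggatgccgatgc
IFI44, chr1:78649739-78649788, plus strand: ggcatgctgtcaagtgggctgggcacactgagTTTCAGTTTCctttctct
IFITM3, chr11:320875-320924, minus strand: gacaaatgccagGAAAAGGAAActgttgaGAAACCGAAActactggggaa
The letters were present in 5 of the 7 promoters of genes higher in HCC1806, in 8 of the 9 of genes lower in HCC1806 and in 4 of the 10 of genes not called. ISG15 and HERC5 each show 2 overlapping copies in this stretch, and IFIT1, IFIT3, IFIT5 and IFITM3 each show 2 separate copies. A match is a run of letters and no measurement of binding. IRF3, OASL, IRF7, TRIM22, IFIT2, USP18, MX2 and IFITM2 had no entry.

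At baseline the lines differed in most of these genes, and in both directions. Of the 34, 13 were higher and 10 were lower in HCC1806 controls than in HCC1395 controls at an adjusted p under 0.05, by limma with the Benjamini-Hochberg method applied to the full table of 53617. Over all transcript clusters 14.4% were called higher and 14.9% lower (29.3% in all), and over the 16098 with a gene symbol 21% and 21.8% (42.8% in all), against 67.6% of these genes. The median difference of the 34 was 0.18, against −0.001 over all transcript clusters. The median absolute difference was 0.82, against 0.26 over all transcript clusters and 0.335 over those with a symbol. Of the 34, 33 were brighter than the median transcript cluster, and no comparison set was matched for signal. The control arrays of the lines did not overlap for 16 of the 34 in the higher direction and 14 in the lower. The shares were 20.1% and 20.6% of all transcript clusters, and 26.7% and 27.9% of those with a symbol. So the interferon-stimulated genes did not stand uniformly high in either line.

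**Figure D1:**
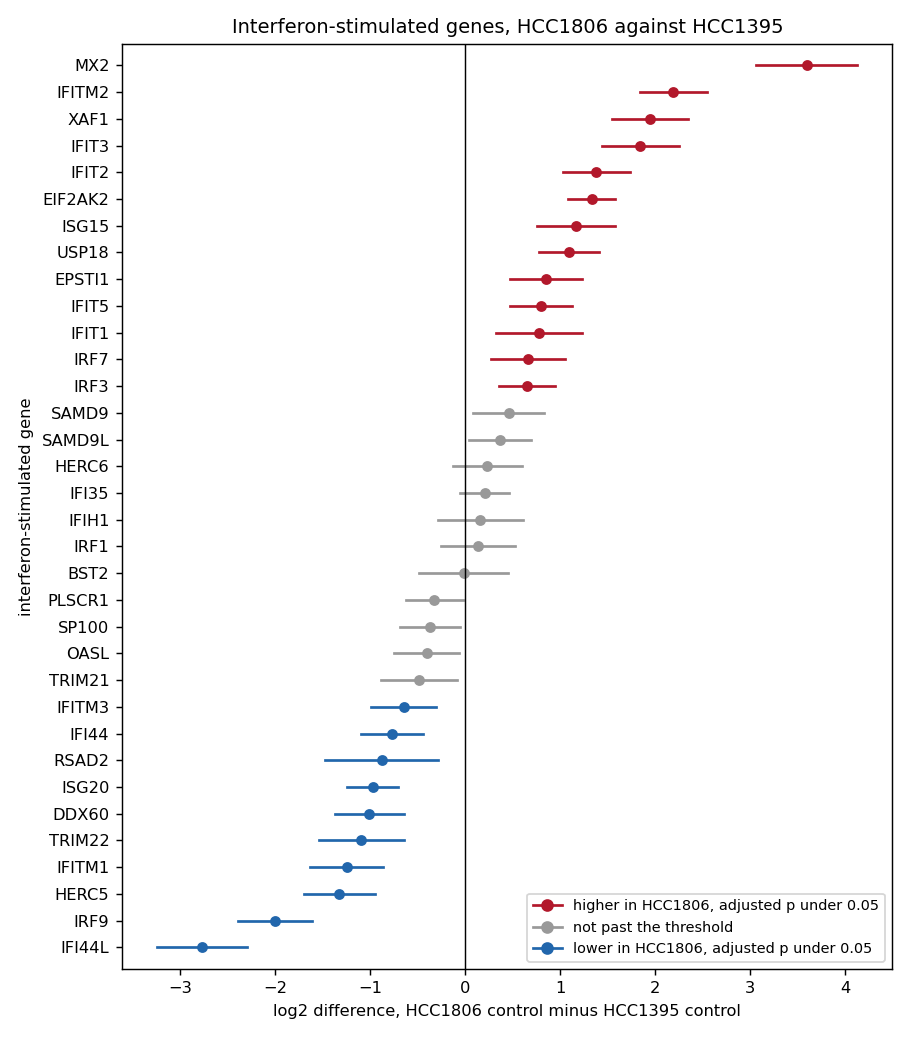
Log2 difference of HCC1806 control minus HCC1395 control arrays (x axis, 3 arrays each) for each of the 34 interferon-stimulated genes, with 95% confidence intervals from limma. MX2 (3.59) and IFI44L (−2.77) lie at the ends, and 11 genes in the middle were not past the threshold.

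The widest gap belonged to MX2, which encodes a dynamin-like GTPase known for blocking HIV-1. Its signal was 7.38, 7.47 and 7.20 on HCC1806 control arrays, against 3.21, 4.03 and 4.03 on HCC1395 control arrays. That is 12.1-fold higher in HCC1806 (log2 difference 3.59 ± 0.25 SE, adjusted p = 9.7e-09). In HCC1395 the gene lay below the array median on all 3 control arrays and all 3 GapmeR 1 arrays, so the fold there is set against a dim signal.

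Among the transcription factors the lines went apart. IRF9, the DNA-binding subunit of the complex that interferon activates, read 5.20, 5.16 and 5.19 in HCC1806 controls, against 7.10, 7.11 and 7.34 in HCC1395 controls. It was 4.003-fold lower in HCC1806 (log2 −2.001 ± 0.18 SE, adjusted p = 2.14e-07). IRF3 and IRF7, the factors that sensors activate to drive interferon genes, were higher in HCC1806, by 0.65 and 0.66. IRF7 was below the array median on every HCC1395 array, and IRF1 differed by 0.14 with a 95% interval from −0.25 to 0.52.

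All 4 IFIT genes, whose products bind viral RNA and block its translation, were higher in HCC1806. IFIT3 gave 6.48, 6.62 and 6.67 in HCC1806 controls, against 5.01, 4.57 and 4.66 in HCC1395 controls, a 3.59-fold difference (log2 1.85 ± 0.19 SE, adjusted p = 8.31e-07). IFIT2 was higher by 1.38 (adjusted p = 5.13e-06), IFIT5 by 0.80 and IFIT1 by 0.78. The genes lie side by side on chromosome 10, and no array of one line reached into the range of the other for any of them, over all 9 arrays of each line: IFIT1, the closest, had its lowest value in HCC1806 at 7.16 and its highest in HCC1395 at 7.10.

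The IFITM genes, which encode membrane proteins that stop viruses from fusing, did not move together. IFITM2 read 9.19, 8.82 and 8.71 in HCC1806 controls, against 6.69, 6.76 and 6.71 in HCC1395 controls, and was 4.57-fold higher in HCC1806 (log2 2.19 ± 0.17 SE, adjusted p = 2.58e-08). IFITM1 ran the other way, with 8.68, 8.24 and 8.31 in HCC1806 controls against 9.68, 9.59 and 9.69 in HCC1395 controls (log2 −1.25 ± 0.18 SE, adjusted p = 3.97e-05). IFITM3 was also lower in HCC1806, by 0.64 (adjusted p = 0.00514). These 3 paralogues are nearly identical in sequence, and how far their probes share targets is not known here, so the opposite directions are uncertain. BST2 (tetherin), which holds budding virus at the cell surface, differed by −0.02 with a 95% interval from −0.48 to 0.45.

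**Figure D2:**
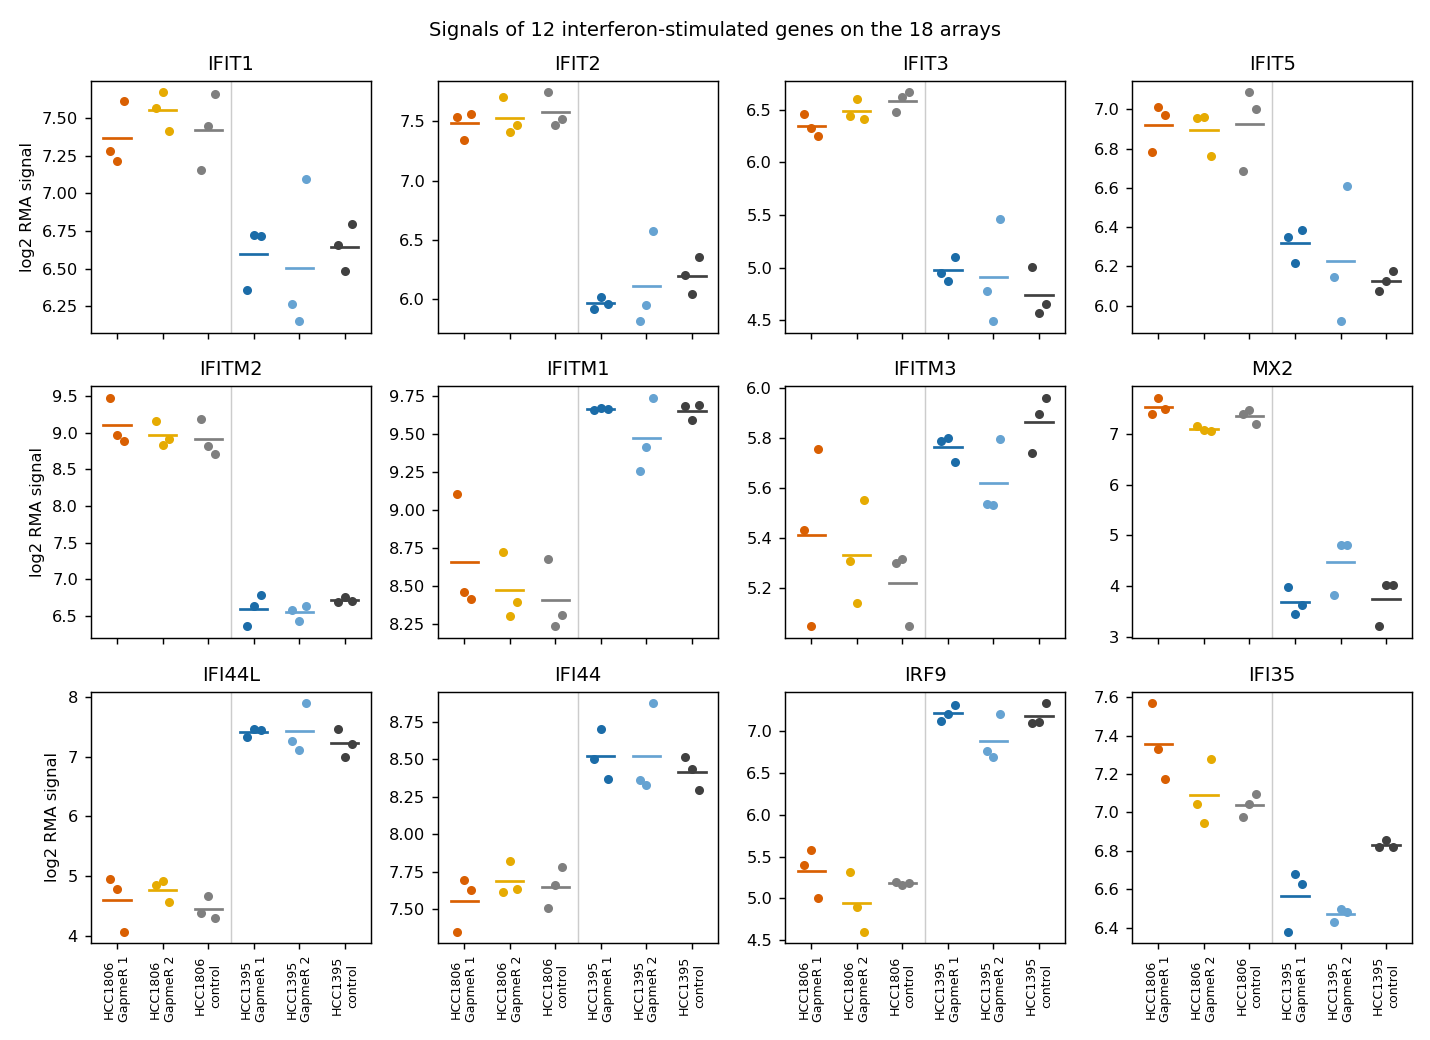
Log2 RMA signal (y axis, a separate scale in each panel) of 12 interferon-stimulated genes on the 18 arrays, 3 points a group and a bar at the group mean. The IFIT genes, IFITM2 and MX2 are higher and IFITM1, IFI44L, IFI44 and IRF9 are lower on every HCC1806 array, and one HCC1395 GapmeR 2 array lies above the other two in the IFIT genes and IFI44L.

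IFI44L and IFI44, neighbouring genes of little-known function that are among the usual markers of an interferon response, were both lower in HCC1806. IFI44L read 4.40, 4.67 and 4.30 in HCC1806 controls, against 7.46, 6.99 and 7.22 in HCC1395 controls, so it was 6.80-fold lower in HCC1806 (log2 −2.77 ± 0.22 SE, adjusted p = 5.26e-08). IFI44 was lower by less, with a difference of −0.77 (adjusted p = 0.000815). XAF1, a pro-apoptotic partner of XIAP, went the other way. It read 6.78, 6.67 and 6.66 in HCC1806 controls, against 5.20, 4.35 and 4.70 in HCC1395 controls, and was 3.86-fold higher in HCC1806 (log2 1.95 ± 0.19 SE, adjusted p = 4.01e-07). EPSTI1 was higher by 0.85 (adjusted p = 0.00123).

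The ISG15 system, a ubiquitin-like tag with its ligase and its protease, was split. ISG15 itself read 6.48, 6.78 and 6.98 in HCC1806 controls, against 5.62, 5.13 and 5.99 in HCC1395 controls (log2 1.17 ± 0.19 SE, adjusted p = 0.000155). USP18, which removes the tag and dampens the interferon receptor, was higher by 1.09 (adjusted p = 1.95e-05). It has near-identical copies in the genome, which can share its probes. HERC5, the ligase that attaches the tag, was lower in HCC1806 by a difference of −1.32 ± 0.18 SE (adjusted p = 1.61e-05), with 5.32, 5.05 and 5.45 in HCC1806 controls against 6.61, 6.54 and 6.63 in HCC1395 controls. Its relative HERC6 differed by 0.23 with a 95% interval from −0.13 to 0.60.

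Of the 6 measured genes that sense or attack RNA, 3 were lower in HCC1806 and 1 was higher. Among all transcript clusters with a symbol 21.8% were lower and 21% were higher. EIF2AK2 (PKR), the kinase that stops translation on double-stranded RNA, read 10.76, 10.72 and 10.80 in HCC1806 controls, against 9.48, 9.45 and 9.35 in HCC1395 controls (log2 1.33 ± 0.12 SE, adjusted p = 1.25e-07). DDX60, a helicase, and ISG20, an exonuclease, were lower by differences of −1.01 (adjusted p = 0.000184) and −0.97 (adjusted p = 1.12e-05). RSAD2 (viperin), which makes a chain-terminating nucleotide, differed by −0.88 (adjusted p = 0.0239). Its arrays spread widely, from 3.10 to 3.82 in HCC1806 controls and from 3.84 to 4.79 in HCC1395 controls, and it lay below the array median on every HCC1806 array. Without HCC1806 control replicate 2 or 3, or without HCC1395 control replicate 1 or 2, its adjusted p was 0.0632, 0.112, 0.0593 and 0.129 in that order. The sensor IFIH1 differed by 0.16 with a 95% interval from −0.29 to 0.61, and OASL by −0.41 (adjusted p = 0.0721).

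TRIM22, a ubiquitin ligase with antiviral activity, was lower in HCC1806 by a difference of −1.09 ± 0.21 SE (adjusted p = 0.000643), and the antibody receptor TRIM21 differed by −0.48 (adjusted p = 0.0687). The remaining genes not called were SAMD9 (0.46), SAMD9L (0.37), IFI35 (0.21), PLSCR1 (−0.32) and SP100 (−0.37), all within a 2-fold difference by their 95% intervals. All 23 called genes kept their direction when the lines were compared on the GapmeR 1 arrays or on the GapmeR 2 arrays, a comparison added after the data were seen. The share among all called transcript clusters was not computed, so this count is a description only. Over all transcript clusters 60.8% had 1 sign on all 3 sets of arrays, and 71.5% of those with a symbol, against 32 of the 34. Over all 9 arrays of each line, 14 genes were higher and 7 lower in HCC1806 with no overlap, against 11% and 12% of all transcript clusters. The 14 include IFI35, which was not called on the control arrays and lay higher in HCC1806 by 0.80 on GapmeR 1 arrays and 0.62 on GapmeR 2 arrays. RSAD2 differed by −0.41 on the GapmeR 1 arrays (adjusted p = 0.32) and by −0.57 on the GapmeR 2 arrays (adjusted p = 0.145).

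Genes that pass the interferon signal on were lower in HCC1806 where they were called. Of 16 receptor and signalling symbols 7 were measured, and 4 of these were lower and none higher, against 21.8% lower and 21% higher among all transcript clusters with a symbol. JAK2, a kinase of the interferon gamma receptor, read 4.67, 5.02 and 4.85 in HCC1806 controls, against 7.85, 7.80 and 7.56 in HCC1395 controls (log2 −2.89 ± 0.35 SE, adjusted p = 5.22e-06). JAK1 differed by −0.82, SOCS3, a feedback inhibitor, by −0.82 and IFNGR1 by −0.71. TYK2, SOCS1 and IFNGR2 were not called.

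Of 19 symbols of nucleic acid sensing 16 were measured, with 5 higher, 4 lower and 7 not called, against 42.8% called in either direction among all transcript clusters with a symbol. The DNA sensors CGAS and AIM2 were higher in HCC1806. CGAS read 8.43, 8.39 and 8.17 in HCC1806 controls, against 5.49, 5.17 and 5.38 in HCC1395 controls (log2 2.98 ± 0.15 SE, adjusted p = 1.54e-10). AIM2 averaged 5.85 ± 0.31 in HCC1806 controls and 2.46 ± 0.19 in HCC1395 controls (SD, n = 3 each), a difference of 3.39 (limma adjusted p = 9.66e-09). The HCC1395 level lay below the array medians, so the size of this difference is set against a dim signal. STING1, the adaptor below CGAS, was lower in HCC1806 by a difference of −0.87 (adjusted p = 0.000108). The RNA sensors RIGI, DHX58 and TLR3 were lower by differences of −0.54, −0.72 and −0.62. SAMHD1, which removes nucleotides that viruses need, was higher by 1.33.

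IFNE was read only through its name in a supplementary table of genes that the study chose on the HCC1395 GapmeR arrays, so its HCC1395 values are given as a description with no test. Its signal was 1.99, 2.03 and 1.96 in HCC1806 controls, against 4.09, 3.38 and 3.59 in HCC1395 controls, a difference of −1.70. All 9 HCC1806 arrays lay between 1.78 and 2.59, well under the array medians, and the 9 HCC1395 arrays lay between 3.38 and 4.50. IFNE was also below the array median on HCC1395 control replicates 2 and 3, and near it on replicate 1. The differences between the lines and from the HCC1395 controls are therefore set against dim signals. In HCC1395 IFNE read 4.48, 4.25 and 4.35 with GapmeR 1 and 3.73, 4.50 and 4.26 with GapmeR 2, against the control values above. The differences were 0.67 for GapmeR 1 and 0.48 for GapmeR 2, whose arrays overlapped the controls. The gene was named through a choice made on these same arrays, so neither difference counts as support for a change. In HCC1806 the arrays labelled GapmeR 1 and GapmeR 2 differed from control by 0.08 (95% interval −0.39 to 0.55) and 0.23 (−0.24 to 0.70), with limma adjusted p of 0.968 and 1. IFNA1, a classical type I interferon named through the same table, averaged 2.81, 2.75 and 2.05 on HCC1395 GapmeR 1, GapmeR 2 and control arrays. These values too are given with no test. The GapmeR 2 arrays overlapped the controls. IFNA1 was dim throughout, at most 3.25 on HCC1395 arrays and 1.83 on HCC1806 arrays, below every array median.

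The genes that lie around IFNE on the short arm of chromosome 9 differed between the lines in both directions. Of 9 measured neighbours, 2 were higher and 5 lower in HCC1806, against 42.8% called in either direction among all transcript clusters with a symbol. HACD4, a fatty acid elongation enzyme, averaged 5.86 in HCC1806 controls and 2.52 in HCC1395 controls (difference 3.35, adjusted p = 3.91e-08), and its HCC1395 level was a dim one, below the array medians. MTAP, a methionine salvage enzyme, averaged 6.85 in HCC1806 controls and 4.196 in HCC1395 controls (difference 2.65, adjusted p = 1.93e-08). The genes lower in HCC1806 were DMRTA1 (−2.08), MIR31HG (−1.49), KLHL9 (−1.41), FOCAD (−0.72) and MIR31 (−0.70). CDKN2A and CDKN2B-AS1 were dim in both lines. IFNE, at −1.70, had the sign of these 5. Copy number was not measured, and its part in these differences was not tested.

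**Figure D3:**
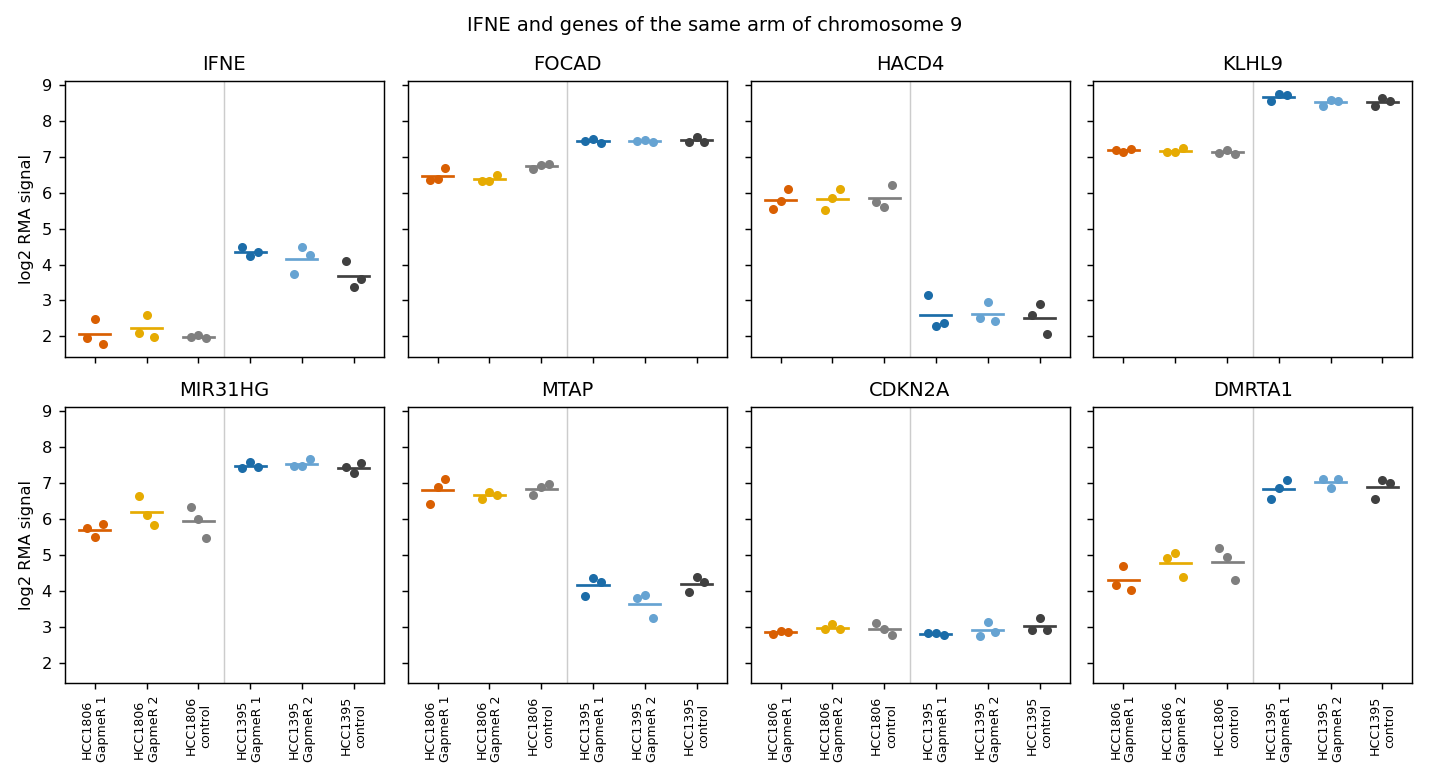
Log2 RMA signal (y axis, levels not comparable between genes) of IFNE and 7 genes of its chromosomal region on the 18 arrays, 3 points a group and a bar at the group mean. IFNE lies between 3.38 and 4.50 on HCC1395 arrays and between 1.78 and 2.59 on HCC1806 arrays, while HACD4 and MTAP are higher in HCC1806.

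The comparisons of each GapmeR with the negative control GapmeR ask whether the PART1 oligonucleotides moved the interferon programme. No interferon-stimulated gene passed an adjusted p of 0.05 by limma for GapmeR 1, GapmeR 2 or both together in either line, nor did any of the 53617 transcript clusters (0% called in each of the 6 comparisons). At an unadjusted p under 0.05, HCC1806 had 0 of the 34 in all 3 comparisons, against 5.97%, 5.07% and 5.26% of all transcript clusters for GapmeR 1, GapmeR 2 and both. HCC1395 had 1, 2 and 1, against 5.39%, 6.73% and 6.55%. Under the other tools and settings the adjusted count was 0 as well. In HCC1806 the 95% intervals lay within a 2-fold change for all 34 genes with either label, and in HCC1395 for all 34 with GapmeR 1 and for 33 with GapmeR 2, MX2 being the exception.

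In HCC1806 the median of the 34 was 0.11 on arrays labelled GapmeR 1, against 0.01 over all transcript clusters, and −0.02 on arrays labelled GapmeR 2, against 0.01. The first rests on GapmeR 1 replicate 1, without which it was 0.012. RSAD2 read 3.97, 3.95 and 3.62 on arrays labelled GapmeR 1, against 3.82, 3.40 and 3.10 on control arrays, a difference of 0.40 ± 0.19 SE (adjusted p = 0.846). SAMD9L, a translation inhibitor, read 6.90, 7.23 and 7.58 on arrays labelled GapmeR 1, against 7.63, 7.53 and 7.59 on control arrays (difference −0.35, adjusted p = 0.846). EPSTI1 differed by −0.32 (adjusted p = 0.864). Each of these rests on single arrays: RSAD2 was 0.24 and EPSTI1 −0.10 without control replicate 3, EPSTI1 was −0.54 without control replicate 1, and SAMD9L was −0.18 without GapmeR 1 replicate 1. On arrays labelled GapmeR 2 the widest values were IFI44L at 0.32, IRF1 at −0.27 and MX2 at −0.26, each with an adjusted p of 0.982 or more. IRF1 was −0.10 without GapmeR 2 replicate 3 and −0.45 without GapmeR 2 replicate 1. Over both labels RSAD2 differed by 0.30, EPSTI1 by −0.26 and SAMD9 by 0.24, with adjusted p-values from 0.96 to 0.964. Without control replicate 3 they were 0.13, −0.04 and 0.40, and SAMD9 was 0.12 without control replicate 2. Groups did not overlap for 3 genes in the higher direction and 3 in the lower with the label GapmeR 1, against 5.89% and 5.31% of all transcript clusters. With the label GapmeR 2 that held for 0 higher and for 1 lower, MX2, against 5.5% and 5.11%. The IFIT genes, common readouts of an antiviral response, had differences from −0.24 (IFIT3, adjusted p = 0.846, groups without overlap) to −0.002 (IFIT5) on arrays labelled GapmeR 1, and from −0.10 (IFIT3) to 0.13 (IFIT1) on arrays labelled GapmeR 2.

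In HCC1395 the median of the 34 was −0.01 with GapmeR 1 and 0.01 with GapmeR 2, against 0.009 and −0.007 over all transcript clusters. IFI35, an interferon-induced leucine zipper protein, had the lowest p among the 34, under 0.05 before adjustment for either GapmeR. It read 6.38, 6.68 and 6.63 with GapmeR 1 and 6.43, 6.496 and 6.48 with GapmeR 2, against 6.82, 6.86 and 6.82 on control arrays. Both GapmeR groups thus lay below every control array, and both are set against the same 3 controls. The differences were −0.27 ± 0.11 SE for GapmeR 1 (adjusted p = 0.916) and −0.36 ± 0.11 SE for GapmeR 2 (adjusted p = 0.7) by limma. In HCC1806 the same gene read 7.57, 7.33 and 7.17 on arrays labelled GapmeR 1 and 7.04, 6.95 and 7.28 on arrays labelled GapmeR 2, against 6.98, 7.05 and 7.10 on control arrays. The difference between the lines in the effect of both GapmeRs was 0.50 ± 0.15 SE for IFI35 (adjusted p = 0.624 by limma), with 0 of the 34 genes and none of all transcript clusters called at an adjusted p of 0.05. At an unadjusted p under 0.05 IFI35 was the 1 of the 34, against 6.6% of all transcript clusters. RSAD2 (0.39) and MX2 (−0.38) had wider intervals, which each reached past a 2-fold difference.

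MX2 in HCC1395 read 3.99, 3.46 and 3.62 with GapmeR 1 and 3.82, 4.82 and 4.82 with GapmeR 2, against 3.21, 4.03 and 4.03 on control arrays. GapmeR 2 differed from control by 0.73 ± 0.31 SE (adjusted p = 0.734 by limma), with groups that overlapped. The value was 0.57 without GapmeR 2 replicate 3 and 0.46 without control replicate 1. HERC5 read 7.05, 6.95 and 6.75 with GapmeR 1, against 6.61, 6.54 and 6.63 on control arrays (difference 0.32, adjusted p = 0.936). Over both GapmeRs the widest differences in HCC1395 were MX2 at 0.34, IFI35 at −0.32 and HERC5 at 0.25, each with an adjusted p of 0.712 or more. MX2 was 0.06 without control replicate 1, so its place among the widest rests on that array. Without GapmeR 2 replicate 3 the values were 0.25, −0.32 and 0.18 in that order. IFIT2 with GapmeR 1 (−0.23) and IRF9 with GapmeR 2 (−0.30) had adjusted p-values of 0.945 and 0.752. IRF9 was −0.46 without GapmeR 2 replicate 3 (adjusted p = 0.704). Groups did not overlap for 2 genes higher and 2 lower with GapmeR 1, against 6.1% and 5.31% of all transcript clusters. With GapmeR 2 that held for 0 higher and 2 lower, IFI35 and IFITM2, against 6.46% and 6.21%.

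**Figure D4:**
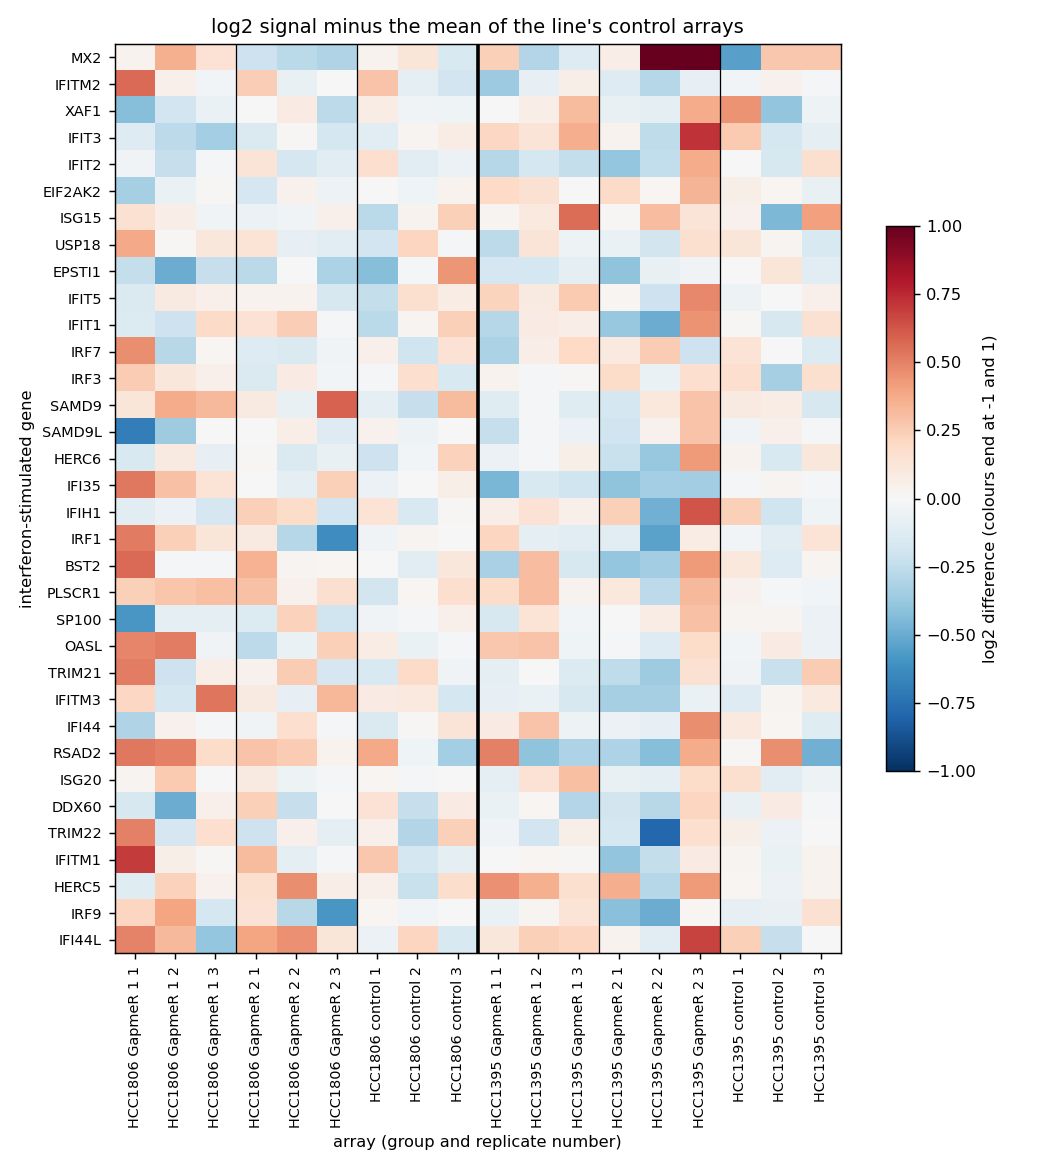
Log2 signal of each of the 34 interferon-stimulated genes (rows) on each of the 18 arrays (columns), minus the mean of the 3 control arrays of the same line. Red is higher and blue is lower than control, colours end at −1 and 1, and the column of HCC1395 GapmeR 2 replicate 3 is red for most genes.

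Of the 7 measured receptor and signalling genes 1, JAK2, had an unadjusted p under 0.05 by limma for GapmeR 1 in each line. Among all transcript clusters 5.97% passed in HCC1806 and 5.39% in HCC1395, and the share passing in both was not computed. JAK2 is described here because its values were already known. In HCC1806, arrays labelled GapmeR 1 gave 2.69, 4.33 and 4.49 and arrays labelled GapmeR 2 gave 4.60, 3.52 and 4.17, against 4.67, 5.02 and 4.85 on control arrays. In HCC1395 it read 7.28, 7.32 and 7.38 with GapmeR 1 and 7.51, 7.74 and 7.61 with GapmeR 2, against 7.85, 7.80 and 7.56 on control arrays. The differences for GapmeR 1 were −1.01 in HCC1806 and −0.41 in HCC1395, with limma adjusted p of 0.836 and 0.844, so neither was called. The HCC1806 value was −0.44 without GapmeR 1 replicate 1 (adjusted p = 0.964). For GapmeR 2 the differences were −0.75 in HCC1806, or −0.46 without GapmeR 2 replicate 2, and −0.12 in HCC1395. No sensor was called in any GapmeR comparison.

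The 2 PART1 oligonucleotides were also compared directly, without the shared controls. In HCC1806, arrays labelled GapmeR 1 exceeded those labelled GapmeR 2 for MX2, with 7.38, 7.71 and 7.49 against 7.14, 7.08 and 7.04 (0.44 ± 0.13 SE, adjusted p = 0.816 by limma). IRF1 was the other gene with an unadjusted p under 0.05 there, with a difference of 0.57 (adjusted p = 0.816). In HCC1395 MX2 differed by −0.79 ± 0.31 SE (adjusted p = 0.999 by limma). At an unadjusted p under 0.05 these were 2 of the 34 in HCC1806, against 5.9% of all transcript clusters, and 1 in HCC1395, against 4.65%. At an adjusted p under 0.05 none of the 34 was called in either line, against 0.00187% of all transcript clusters in HCC1806, which is 1 cluster, and 0% in HCC1395. MX2 thus had opposite signs in the lines and was called in neither, and the difference between the lines was not tested. The 95% intervals of GapmeR 1 minus GapmeR 2 lay within a 2-fold change for all 34 genes in HCC1806 and for 33 in HCC1395.

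The replicate arrays themselves held the clearest shared movement of these genes within a group. On HCC1395 GapmeR 2 replicate 3 the 34 genes averaged 6.58, against 6.20 and 6.13 on replicates 1 and 2 of that group, so the group's SD was 0.24, against 0.03 to 0.05 in the other 5 groups. The median gene on it lay 0.29 above the mean of the control arrays, and 29 of 34 lay above it. On replicates 1 and 2 the median gene lay at −0.09 and −0.24. The 30 genes above both other replicates compare with 33.5% of all transcript clusters with a symbol on the same array, and 19 of the 34 were above all 8 other HCC1395 arrays, against 10.9%. The widest gaps from the mean of replicates 1 and 2 were IFIT1 at 0.89, IFIT3 at 0.83, BST2 at 0.80, IFIH1 at 0.75, RSAD2 at 0.74 and HERC6 at 0.73. IFIT1, for one, read 6.27, 6.15 and 7.10 on the 3 GapmeR 2 arrays, against 6.65, 6.48 and 6.80 on control arrays.

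**Figure D5:**
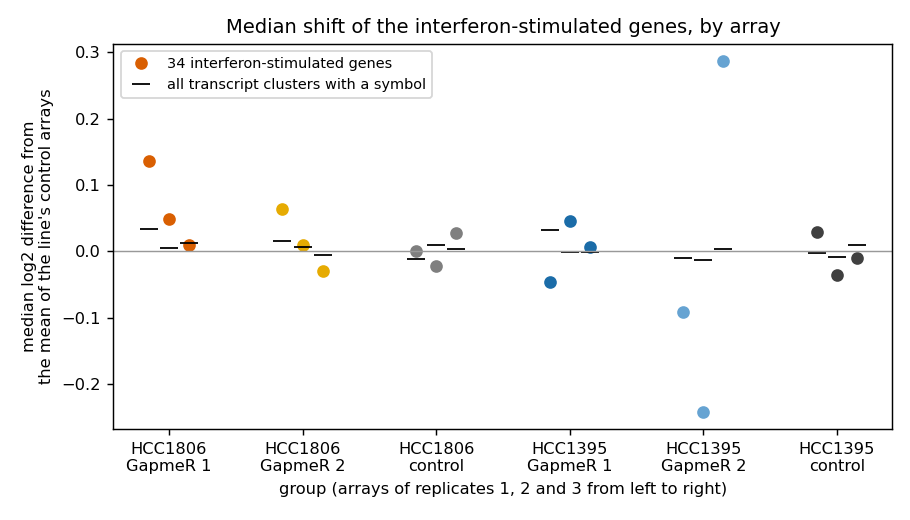
Median log2 difference of the 34 interferon-stimulated genes from the mean of the line's control arrays (points, one an array), with the median over all transcript clusters with a symbol (dashes). HCC1395 GapmeR 2 replicate 3 lies at 0.29 and the other 17 arrays lie between −0.24 and 0.14.

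Other genes of the pathway gave counts on that array that at least 1 other array reached or passed. Of 7 measured receptor and signalling genes 6 were highest on it among the 3 replicates, but 7 were on HCC1806 control replicate 2. Among the other HCC1395 arrays the highest count was 5, on control replicate 1. Of 16 measured sensing genes 8 were highest on it, against 9 on HCC1806 GapmeR 1 replicate 2 and 8 on HCC1395 control replicate 3. On HCC1395 GapmeR 2 replicate 3 itself, 33.5% of all transcript clusters with a symbol were highest of the 3. IFNE was not highest there, with 4.26 against 4.50 on replicate 2. Over all transcript clusters with a symbol, the median gap of replicate 3 from the mean of the other replicates was 0.01, against 0.40 for the 34 genes. Without replicate 3 the median of the 34 in HCC1395 GapmeR 2 against control was −0.12, against 0.01 with it, and the count of called genes was 0 either way. Replicates 1 and 2 of the group lay at the low end for these genes among HCC1395 arrays, so a mean of 3 arrays hides a spread in both directions.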

How the data were processed

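Total RNA was measured on Human Gene 2.0 ST arrays (Affymetrix) in HCC1806 and HCC1395 cells. The deposited values are log2 signals that the authors made with RMA in Affymetrix Expression Console, per the labels; RMA corrects background, normalises quantiles across arrays and summarises probes, so groups were forced to 1 distribution. Versions and genome build are not given in the sources used here. Group membership came from the sample labels. Gene symbols came from the platform annotation, which names 16098 of the 53617 transcript clusters, and IFNE and IFNA1 from a supplementary table of the study that pairs cluster numbers with names.

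Group means were compared with limma 3.58.1 (lmFit and eBayes, R 4.3.3, two-sided, Benjamini-Hochberg over all 53617 transcript clusters, threshold 0.05). The lines were compared in 1 fit of all 18 arrays, and GapmeR groups with their control in the 9 arrays of the line. Intervals are 95% intervals. The steps were tested on simulated data. The genes and lists were chosen with earlier results of these data known. Named with values were the 16 called genes of widest difference at baseline and, for each GapmeR comparison, genes at an unadjusted p under 0.05 and the 3 of widest difference; others are given by role. JAK2 beside GapmeRs, the genes of the array that stood apart and genes without overlap were chosen once their values were known. The number of arrays, 3 a group, limits the precision. Promoters came from RefSeq tables of GRCh38.p14, for which names and promoter coordinates only were used. Alternatives were added quantile normalisation, array medians subtracted, the dimmest 40% of clusters left out, clusters with a symbol only, an intensity trend, an ordinary ANOVA contrast, a replicate block, other array sets in the fit, and each array left out. Figures were drawn with matplotlib 3.10.9.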

Additional observations from a re-analysis of the deposited data

How the results depend on the processing

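The counts of called genes and the medians of the 34 interferon-stimulated genes gave 24 results under 405 alternatives, and 397 of these stayed within the spread between arrays or within 1.5 times the count. For HCC1395 GapmeR 2 that spread is wide, because it includes replicate 3, the array that stood apart. Its median therefore counted as unmoved, although it went from 0.009 to −0.117 without replicate 3. No called value changed sign. The 8 that moved were medians, most with 1 array left out. Among them was the baseline median with the lines compared on the GapmeR 2 arrays, at 0.221. At baseline the median was 0.18 with all arrays and between 0.122 without HCC1395 control replicate 2 and 0.227 without HCC1395 control replicate 1. For HCC1806 arrays labelled GapmeR 1 it was 0.11, and between 0.012 without GapmeR 1 replicate 1 and 0.127 without GapmeR 1 replicate 3. For HCC1395 GapmeR 1 it was −0.01, and between −0.034 without control replicate 2 and 0.049 without control replicate 3, so its sign was not fixed. The cause was not tested. The baseline counts ran from 12 to 15 higher and from 9 to 13 lower, and the GapmeR counts were 0 under every alternative run. Of 613 alternatives for single genes named in the text, 607 kept their side of the threshold, and the other 6 were RSAD2 at baseline, whose values the report gives. Replicate numbers gave no clear pairing of the arrays. The deviations of same-numbered arrays from their group means correlated between −0.007 and 0.093 in HCC1806 and between −0.002 and 0.111 in HCC1395. Most of these weak correlations were above 0, so they cannot exclude a batch shared by replicate number. With the replicate number as a block the baseline counts were 14 higher and 10 lower. Taking another transcript cluster for a symbol was not run, because each gene had 1. Dim signals limit RSAD2 and PART1 in HCC1806, IRF7, MX2, AIM2 and HACD4 in HCC1395, and IFNE and IFNA1 in both lines.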

Other observations

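Some sensors upstream of the interferon programme were dim, or close to the array medians, in both lines. The endosomal sensors TLR7 and TLR8, which read single-stranded RNA, averaged 2.70 and 2.05 in HCC1806 controls and 2.39 and 2.05 in HCC1395 controls, under every array median. ZBP1, a sensor of left-handed nucleic acid, was near the array medians and averaged 3.91 in HCC1806 controls and 3.90 in HCC1395 controls. TLR9, the sensor of CpG DNA, averaged 4.42 in HCC1806 controls and 4.45 in HCC1395 controls, somewhat above the array medians. None of these 4 was called between the lines. TLR3, the endosomal sensor of double-stranded RNA, was brighter than its arrays' medians in both lines, at 8.02 in HCC1806 controls and 8.64 in HCC1395 controls. The adaptors MAVS and MYD88 and the kinase TBK1 were not called either, while TICAM1, the adaptor of TLR3, was higher in HCC1806 by 0.52 and IRF5 by 0.46.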
